A study of Mus musculus with 2 samples.

Results

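Hair shaft keratins are the cysteine-rich intermediate filament proteins of the hair fibre. The genes described here are 10 of them, the type I (acidic) members Krt31, Krt32, Krt33a, Krt33b, Krt34 and Krt35 and the type II (basic) members Krt81, Krt82, Krt85 and Krt86. They were found on the arrays as gene spots carrying one of these names or an older alias. Of the 10 genes, 9 had a spot, with 10 probes in all because Krt33b had 2, and Krt81 had none. All 9 passed the detection filter and belong to the 11748 genes tested. The filter kept probes well above background on both arrays in at least 1 channel. Krt82 passed it through wild type alone, and had therefore to be the dimmer in K14-caSmad1, while the other 8 were well above background in both genotypes.

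K14-caSmad1 mice carry a transgene for constitutively active Smad1, an effector of bone morphogenetic protein (BMP) signalling, under the keratin 14 promoter, which is active in basal epidermis and the outer root sheath. They were compared with wild-type mice, and the animals of both genotypes were FVB/NJ at day 20 after birth. RNA of primary keratinocytes from the epidermis was amplified and hybridised to 2 two-colour Agilent arrays of 60-base oligonucleotides, K14-caSmad1 in Cy5 and wild type in Cy3 on both, with no dye swap. The number of animals, their sex and the stage of the hair cycle were not given in the sources used here.

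A keratin filament forms from equal parts of a type I and a type II chain. In the hair shaft these chains are cross-linked through their cysteines with keratin-associated proteins, and the shaft builds up in layers, from matrix and early shaft cells to a central cortex and an outer cuticle. In human follicles KRT35 and KRT85 appear first, KRT32 and KRT82 mark the cuticle, and KRT31, KRT33A, KRT33B, KRT34, KRT81 and KRT86 follow in the cortex. BMP signalling through the receptor Bmpr1a is known to be needed for shaft differentiation in the mouse.

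All 8 hair shaft keratins well above background in both genotypes were lower in K14-caSmad1 than in wild-type keratinocytes, by at least 2-fold on both arrays. Of all genes tested, 9.81% met the same rule. Krt82, the remaining one of the 9 measured, met it too, but the filter had fixed its direction. With all spots in the background fit Krt82 did not meet it. At 10-fold on both arrays the count was 6 of the 8 members that were well above background in both genotypes, against 1.21% of all genes. That count was 4 of 8 without background subtraction or with median centring, 5 with all spots in the background fit and 7 with the scanner software's processed signals. The median log2 ratio of K14-caSmad1 over wild type was -4.19 for these 8 members, -3.88 with Krt82 included and -0.03 for all genes. The fall ran from 3.65-fold for Krt35 to 38.6-fold for Krt33a. limma gave adjusted p between 1.57e-05 and 3.49e-05 for the 8 members other than Krt82. It also called 46.3% of all genes lower and 87.1% in either direction, so the size of the change says more here than the call.

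The arrays were counted as 1 sample. Between the arrays the log2 ratios of 12287 single-spot probes differed with an SD of 0.0946, against 0.102 predicted from the noise between repeated spots. For the means of 94 repeated probes the SD was 0.0531, against 0.0345 predicted. The labels call the arrays biological replicates, but the p-values measure only how well they repeated and hold no known error between animals. Well above background were 14412 and 15800 gene spots in K14-caSmad1 and 15570 and 16144 in wild type on replicates 1 and 2. In bulk RNA, fewer hair shaft cells and less keratin RNA per cell cannot be told apart. The Smad1 probe that was measured gave log2 ratios of 0.28 and 0.26, and whether it reads the transgene was not tested.

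By median of fitted ratios the cortex keratins fell most, although Krt31 among them did not. The cuticle and the early shaft have 2 measured genes each, and Krt82 of the cuticle has only a bound. Krt33a, a type I keratin of the cortex, had normalized log2 intensities of 12.94 and 12.75 in K14-caSmad1 and of 18.09 and 18.14 in wild type on replicates 1 and 2. Its probe lies on chromosome 11 at 99872578 to 99872637 (mm9). The groups were more than 5 log2 units apart on each array, and Krt33a stood at 2.59% of its wild-type level (mean log2 ratio -5.27, rank 19 from the lowest of all genes, limma adjusted p = 2.39e-05). Krt86, the type II cortex keratin that was measured, gave 12.03 and 11.72 in K14-caSmad1 and 17.17 and 16.99 in wild type. Its ratios of -5.14 and -5.26 overlapped those of Krt33a, -5.15 and -5.39. The lowest type I and the lowest type II ratio among the members were thus not separated by the spread of the arrays.

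For Krt34, another type I cortex keratin, the levels were 13.05 and 13.72 in K14-caSmad1 and 18.05 and 18.59 in wild type. Both channels were brighter on replicate 2, and the ratios, -5.01 and -4.87, stayed within 0.14 of each other. Krt33b gave 13.43 and 13.15 in K14-caSmad1 and 18.22 and 18.15 in wild type, with ratios of -4.79 and -4.99 that overlapped those of Krt34. Krt31, the remaining type I keratin of the cortex, fell less. It had 14.25 and 13.92 in K14-caSmad1 and 17.58 and 17.47 in wild type, which left it at 9.19% of wild type, 10.9-fold lower. The 5 measured cortex keratins had a median log2 ratio of -4.94, with a range of -5.27 to -3.44.

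**Figure D1:**
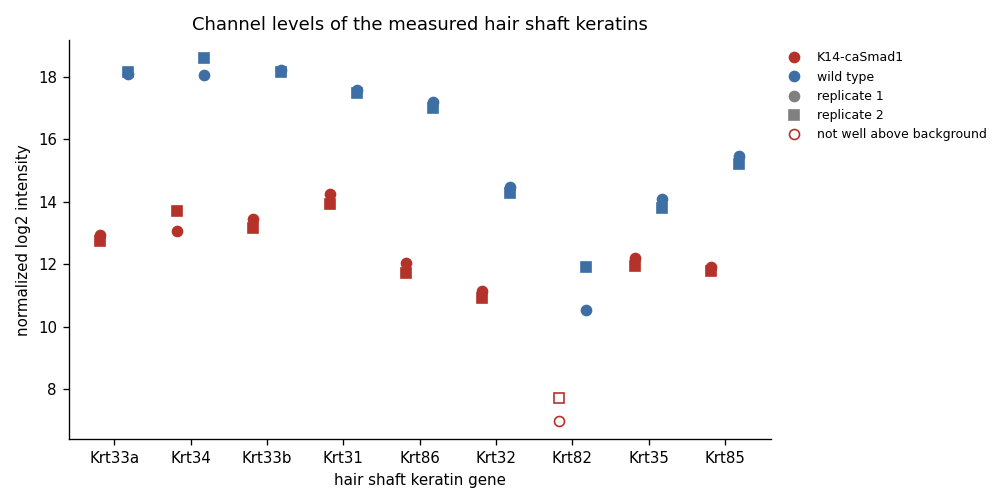
Normalized log2 intensity (vertical axis) of the brightest probe of each of the 9 measured hair shaft keratins, K14-caSmad1 in red left of wild type in blue, with circles for replicate 1 and squares for replicate 2. The open symbols mark Krt82 in K14-caSmad1, which was not well above background. In all 9 genes both K14-caSmad1 points lie below both wild-type points, and levels are not comparable between genes because each is read by its own probe.

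Krt33b was read a second time by a probe farther upstream, at position 629 of the transcript where the first lies at 1588. Its 60 bases span 939 bases of chromosome 11, from 99887866 to 99888804 on the minus strand (mm9), and so join sequence on both sides of an intron. The sequence is shown because this probe reads spliced coding RNA of the rod domain, independently of the far 3′ probe of the same gene.
Krt33b, upstream probe: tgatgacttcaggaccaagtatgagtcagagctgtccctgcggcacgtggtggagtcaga
It had log2 levels of 9.53 and 10.45 in K14-caSmad1 and of 14.88 and 15.57 in wild type. The ratios, -5.36 and -5.13, gave a mean of -5.24, 37.9-fold lower, against -4.89 and 29.7-fold for the brighter probe. Both probes of Krt33b placed the gene near 3% of wild type, at 2.64% and 3.37%.

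The cuticle keratins were lower as well. Krt32, the type I keratin of the cuticle, had log2 levels of 11.16 and 10.92 in K14-caSmad1 and of 14.47 and 14.28 in wild type. The gap was nearly the same on both arrays, with ratios of -3.32 and -3.37 and a mean fall of 10.1-fold (limma adjusted p = 1.58e-05). Krt82, the type II keratin of the cuticle, had 6.97 and 7.73 in K14-caSmad1 and 10.55 and 11.91 in wild type. It was not well above background in K14-caSmad1 on either array, with raw mean signals of 775 and 953 there and of 1029 and 2462 in wild type. The change of Krt82 is therefore a bound, at least 5.73-fold lower under the processing reported. Its fitted log2 ratio of -3.88, which is also the median of all 9 members, depends on how the background was taken off. With all spots in the background fit the fitted ratio was -2.39, a smaller fall than the bound. The bound is thus no limit over every processing. With Krt82 at its bound the median of the 9 members is -3.48. The bound compares channels of different dyes without a swap.

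The 2 keratins that start the shaft had a median of -2.67, but they differed from each other. Krt35 (-1.87) fell least of all members, while Krt85 (-3.48) stood beside Krt31 (-3.44) and Krt32 (-3.34). Krt85, the type II keratin of matrix and early shaft, had log2 levels of 11.92 and 11.79 in K14-caSmad1 and of 15.47 and 15.20 in wild type. Krt35, its type I counterpart there, had 12.20 and 11.94 in K14-caSmad1 and 14.07 and 13.81 in wild type. Krt35 kept 27.4% of its wild-type level and Krt85 8.98%. The ratio of Krt35 was 1.61 log2 units (3.05-fold) above that of Krt85, which is more than 2 times their combined spot error of 0.48 as the scanner software estimates it. Krt35 ranked 421 from the lowest of all genes, and the next member, Krt32, ranked 147.

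Krt82 has only a bound and no place in the order of ratios. From lowest to highest the other 8 stood as Krt33a, Krt86, Krt34, Krt33b, Krt85, Krt31, Krt32 and Krt35. The ranges of the arrays overlapped in 4 of the 7 neighbouring pairs. The difference passed 2 combined spot errors in 2 pairs, Krt33b and Krt85, 1.42 apart with a combined error of 0.65, and Krt32 and Krt35, 1.47 apart with a combined error of 0.47. Within the steps so marked, the order of Krt33a, Krt86, Krt34 and Krt33b, and that of Krt85, Krt31 and Krt32, could not be settled. The spot errors of the members' probes ran from 0.27 to 0.73 log2 units, and the arrays differed by at most 0.24 in the ratio of a member, except for the 0.60 of Krt82. By family, the 6 type I members had a median of -4.17. The median of the 3 measured type II members, -3.88, is the fitted ratio of Krt82, so the families are not compared by it. Without Krt82 the type II median lay 0.17 below that of type I, a difference of -0.17 that is within the spot errors.

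**Figure D2:**
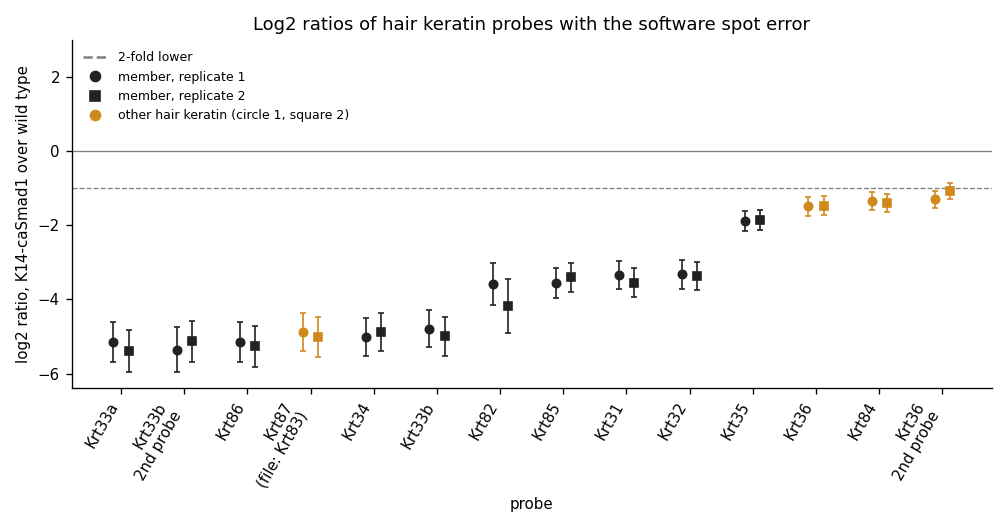
Log2 ratio of K14-caSmad1 over wild type (vertical axis) for each hair keratin probe that was measured, members in black and other hair keratins in orange, with circles for replicate 1, squares for replicate 2 and bars for the scanner software's error of 1 spot. Every probe shown lies below the dashed line of a 2-fold fall, 4 of the 5 cortex genes near -5 and Krt35, Krt36 and Krt84 between -2 and -1.

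Other hair keratins outside the 10 were lower too. Krt36, a type I gene next to Krt35 that in the mouse is also known from the filiform papillae of the tongue, had ratios of -1.49 and -1.47, and its second probe -1.30 and -1.07. Krt84, a type II gene with the same known site, had -1.34 and -1.39. A probe that the array calls Krt83, whose accession the RefSeq table assigns to Krt87, had -4.88 and -5.02. With these 3 genes, 12 hair keratins were measured and all 12 were at least 2-fold lower on both arrays. Krt88 was not well above background in either genotype, and Krt39, Krt40 and the gene now called Krt83 had no spot.

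Hair keratins are close paralogs, so the 60-base probes of the hair keratins were compared with each other. Among all pairs of these probes the longest run of identical bases was 20, between the probe of Krt86 and that labelled Krt83, and the next longest was 10. Both of these probes are shown because their shared bases bear on how separately the type II cortex genes were read. They read coding sequence of the rod domain, Krt86 on chromosome 15 from 101307291 to 101307350 on the plus strand and the probe labelled Krt83 from 101264040 to 101264099 on the minus strand (mm9). Capitals mark the 20 shared bases.
Krt86 probe: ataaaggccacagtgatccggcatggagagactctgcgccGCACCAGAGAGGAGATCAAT
Probe labelled Krt83: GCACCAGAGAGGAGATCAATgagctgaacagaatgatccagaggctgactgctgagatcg
The shared bases end 1 probe and open the other, so that both probes tile one conserved stretch of the rod. The array's own annotation lists a Krt86 transcript for the probe labelled Krt83 as well. The values of -5.20 for Krt86 and -4.95 for that probe may therefore share signal of near-identical transcripts, which was not tested.

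The members lie in 2 clusters of keratin genes. On chromosome 11 (mm9) the probes of the type I members ran from 99872578 to 99953598, a stretch of 81.02 kb in which all 7 keratin probes belonged to members. The order along the chromosome is Krt33a, Krt33b, Krt34, Krt31, Krt32 and Krt35, and the ratios were lowest at the Krt33a end and highest at the Krt35 end. The next keratin with a measured probe beyond Krt35 was Krt36 (-1.48). Beyond Krt33a it was Krt23 (0.11), an epithelial keratin that is not of the hair. The Krt23 probe starts far off, at 99339393, and only keratin probes were placed, so Krt23 is not an adjacent gene. On chromosome 15 the type II members ran from 101307291 to 101371888, 64.6 kb that also held Krt84 between Krt85 and Krt82. Krt84, at -1.36, thus lay between genes with ratios of -3.48 and -3.88.

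Among all measured keratin probes, the 10 probes of members had a median log2 ratio of -4.39 and the 5 of inner root sheath keratins -3.88. The 24 probes of other keratins, those of epidermis, outer root sheath and simple epithelia, had a median of 0.07 and ran from -1.70 to 4.26. The lowest of these was thus above the highest ratio of a member, -1.87, by less than the spot error of Krt35.

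**Figure D3:**
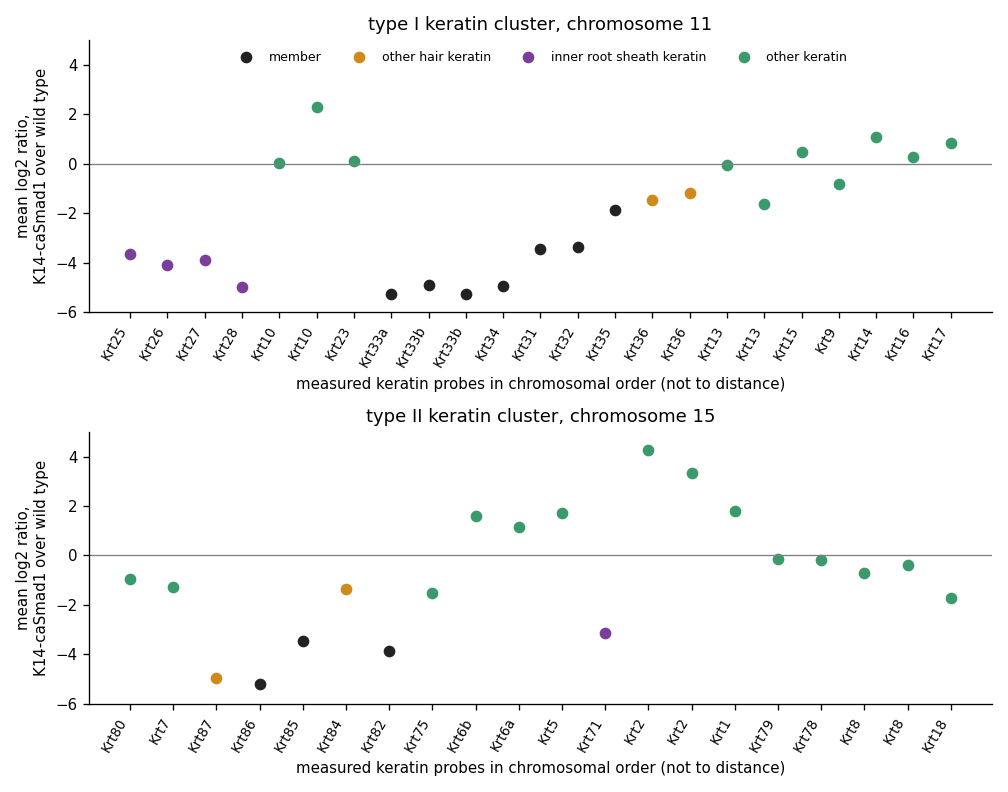
Mean log2 ratio of K14-caSmad1 over wild type (vertical axis) for measured keratin probes in chromosomal order along the type I cluster on chromosome 11 (upper panel) and the type II cluster on chromosome 15 (lower panel), coloured by class. Members in black and inner root sheath keratins in purple form blocks below -1.8, while most other keratins in green lie between -1.7 and 4.26.

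The partners of these keratins in the hair fibre were lower too. Of 41 keratin-associated protein genes with a spot, 39 were measured. All 36 that were well above background in both genotypes were at least 2-fold lower on both arrays. The other 3 met the same rule, but had passed the filter through wild type alone, which fixed their direction. All 39 enter the values below. Their median log2 ratio was -4.70, with a range of -6.32 to -2.93. With 3 genes that were not well above background in K14-caSmad1 at their bound, the median was -4.47. Krtap19-9b (-6.32), Krtap14 (-6.01), Krtap12-1 (-5.87) and Krtap31-1 (-5.81) were the lowest. Ranked by fitted ratio, the 20 lowest of all genes held 1 member and 10 keratin-associated protein genes. The 100 lowest held 5 members, 26 keratin-associated protein genes and 4 other keratins. Krt82, at rank 96 by a fitted ratio though it has only a bound, is among these 5. Keratin-associated protein genes with only a bound were ranked in the same way. A list of 19 other hair shaft proteins had 17 measured genes, of which 13 were at least 2-fold lower and 0 higher (median -3.24). Psors1c2 (-5.15), Tchh (-4.69), the trichohyalin gene, Padi1 (-4.49), a peptidylarginine deiminase gene, and Fbp1 (-4.43) were the lowest of these. Tchhl1 and Tgm3 of this list were not well above background in K14-caSmad1, and were at least 6.36 and 2.39-fold lower. The filter had fixed the direction of both. Of the 15 genes of the list well above background in both genotypes, 11 were at least 2-fold lower. Under other processing, 10 to 13 genes of the list were at least 2-fold lower and 0 to 2 higher. The share of genes at least 2-fold higher on both arrays was 4.09% over all genes.

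Inner root sheath keratins, which form the sheath that moulds the growing shaft, fell in the same range as the members. All 5 measured of 8 listed were at least 2-fold lower, with Krt28 at -4.97, Krt26 at -4.10, Krt27 at -3.88, Krt25 at -3.66 and Krt71 at -3.15. Keratins of the epidermis and outer root sheath differed in direction. Of 14 measured, 6 were at least 2-fold higher and 1 was lower, with Krt2 at 4.26, Krt1 at 1.80, Krt5 at 1.70 and Krt6b at 1.59, and with Krt75, the companion layer keratin, at -1.50. The 6 higher ones were between 5 and 7 under other processing. Of 10 simple and other epithelial keratins 5 were measured, and 3 of these were at least 2-fold lower, Krt18 (-1.70), Krt13 (-1.63) and Krt7 (-1.28), although a second probe of Krt13 gave -0.05. Krt8 was at least 1.59-fold lower. The 3 lower simple keratins were between 1 and 4 under other processing.

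**Figure D4:**
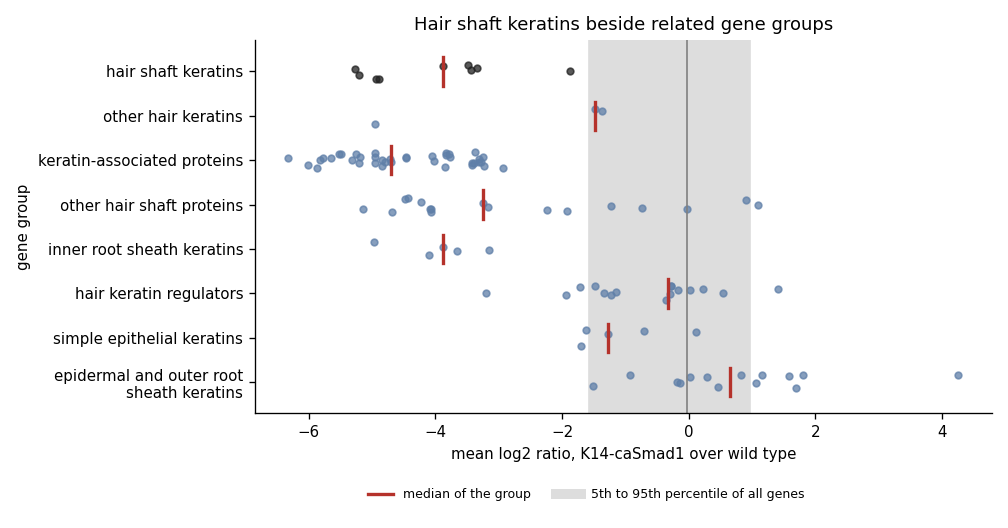
Mean log2 ratio of K14-caSmad1 over wild type (horizontal axis) for each measured gene of 8 groups, 1 point per gene, with a red line at each group's median and a grey band from the 5th to the 95th percentile of all genes. The hair shaft keratins (median -3.88), keratin-associated proteins (-4.70) and inner root sheath keratins (-3.88) lie left of the band, and the epidermal and outer root sheath keratins are centred right of 0 (median 0.65).

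The members' median on each array is Krt82's own fitted ratio, so likeness to it is likeness to a probe that was not well above background in K14-caSmad1. The genes nearest to it over the 2 arrays were Pla2g2e (-3.90), Olfr1134, Krtap8-1, Krtap19-1, Gprc5a and Krtap13-1. Set against the median of the other 8 members (-4.17 and -4.21 on replicates 1 and 2), a measure chosen after the values were seen, the nearest were Tm4sf1 (-4.21), Crym (-4.22), Prss3 (-4.17), Ly6g6d (-4.12), Slc4a7 (-4.27) and Entpd3 (-4.15). Likeness over 2 arrays describes these values only.

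Regulators known to act on hair keratin genes differed less than the keratins. Of 20 listed genes, all with a spot, 16 were measured, and on both arrays 6 were at least 2-fold lower and 1 was higher. Foxq1 passed the same fold by its fitted ratio, but its bound does not reach it. The median log2 ratio was -0.32. Counted by fitted ratios, 7 regulators were lower, and 5 with median centring or without background subtraction and 4 with all spots in the background fit. Msx2, a homeobox gene of the matrix, had the lowest ratio, -3.18 and -3.21. Cux1, a homeobox gene, was at -1.72. Ovol1, a zinc finger gene of epithelial differentiation, was at -1.94, but a second probe of it gave -0.62. Hoxc13, whose protein binds hair keratin promoters directly, had -1.46 and -1.50, Prdm1 (-1.33) and Dlx3 (-1.23) were next, and Foxq1, a forkhead gene of the hair medulla in the mouse, was at least 1.67-fold lower. Gata3, a regulator of the inner root sheath, was the higher one, at 1.42 and 1.41.

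The BMP receptor gene Bmpr1a was at 0.54. The genes of Wnt signalling were close to the median of all genes, with Ctnnb1 (beta-catenin) at -0.28, Tcf7l1 at -0.29 and Tcf7l2 at 0.22. The 2 other tested probes of Ctnnb1 gave 0.02 and 0.45, so its probes differed in direction. Vdr was at -0.28, Lhx2 at -0.16, Trps1 at -0.36 and Ets2 at 0.02. Lef1, Msx1 and Runx1 were not well above background in either genotype, and Foxn1 was not so on both arrays of either, so no change is given for them.

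Upstream sequence was available in the RefSeq table (GRCm38.p6) for 5 of the 10 members, Krt31, Krt32, Krt33b, Krt34 and Krt82. The 250 bases before the start are shown for 4 of them, so that short runs in them can be compared. Krt32 is not shown, although it carries the same runs as the other type I genes. A link between these runs and the fall was not tested. Capitals mark the runs TATAAA (searched on the gene strand), CTTTGA, the core bound by LEF/TCF factors, with its extension CTTTGAAG, and TTTTATG (each searched on both strands). All 4 lie on the minus strand: Krt31 at chr11:100050552-100050801, Krt33b at chr11:100029869-100030118, Krt34 at chr11:100041555-100041804 and Krt82 at chr15:101550660-101550909.
Krt31, 250 bases upstream: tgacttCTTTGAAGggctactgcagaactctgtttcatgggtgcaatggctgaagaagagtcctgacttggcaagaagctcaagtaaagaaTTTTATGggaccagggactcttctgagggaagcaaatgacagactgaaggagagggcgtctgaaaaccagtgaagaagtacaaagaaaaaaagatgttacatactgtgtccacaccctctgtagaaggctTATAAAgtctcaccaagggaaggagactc
Krt33b, 250 bases upstream: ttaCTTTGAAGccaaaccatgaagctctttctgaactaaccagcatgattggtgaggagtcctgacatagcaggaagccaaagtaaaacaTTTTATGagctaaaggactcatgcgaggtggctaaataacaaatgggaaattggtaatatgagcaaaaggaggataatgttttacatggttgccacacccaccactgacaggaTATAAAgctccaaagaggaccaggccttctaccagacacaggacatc
Krt34, 250 bases upstream: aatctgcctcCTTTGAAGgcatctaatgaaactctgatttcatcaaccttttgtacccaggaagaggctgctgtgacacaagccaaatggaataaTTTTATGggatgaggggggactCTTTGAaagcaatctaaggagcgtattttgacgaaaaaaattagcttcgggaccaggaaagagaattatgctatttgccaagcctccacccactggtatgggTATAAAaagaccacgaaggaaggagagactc
Krt82, 250 bases upstream: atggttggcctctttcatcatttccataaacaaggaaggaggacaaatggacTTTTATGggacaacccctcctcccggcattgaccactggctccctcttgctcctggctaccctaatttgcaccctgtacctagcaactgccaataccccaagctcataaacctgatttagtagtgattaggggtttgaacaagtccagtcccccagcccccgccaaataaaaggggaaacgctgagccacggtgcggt
Over the whole windows of 300 bases, 250 before to 50 after the start, TATAAA was found in 4 of the 5 members' promoters, against 8.32% of 32851 promoters. CTTTGA was in 4 of 5, against 16.0%, and CTTTGAAG, which contains it, in 4 of 5, against 1.66%. TTTTATG was in 5 of 5, against 4.19%. The positions were alike among the type I genes. CTTTGAAG began 244 bases before the start in Krt31, 247 in Krt32, 247 in Krt33b and 240 in Krt34, and TTTTATG began 159, 159, 160 and 155 bases before it in the same order. In Krt82, the type II member, TTTTATG began at 198 bases and the other runs were not found.

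The sequences GGCGCC and GTCTAGAC, which Smad proteins are known to bind, were in 0 of the 5 promoters, against 11.9% and 0.213% of all promoters. CTTTGAAG and TTTTATG were chosen after these sequences were seen, and the type I genes are neighbouring paralogs with related promoters. A match describes letters in a window, not a site in use.

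Markers of cell types were set beside the members' fall, and their part in it was not tested. Each summed level takes in every listed gene with a spot, also those that were not measured. All 8 basal keratinocyte markers were measured, 4 of them at least 2-fold higher and 0 lower, with a summed linear level of 377614 and 398123 in K14-caSmad1 and of 209212 and 201450 in wild type. Krt5 and Krt14, which define the labelled cell type, were well above background in both genotypes, with ratios of 1.70 and 1.07. All 8 suprabasal markers were measured as well, 4 at least 2-fold higher and 0 lower, with sums of 584845 and 600905 in K14-caSmad1 and of 357385 and 326567 in wild type. Of 9 inner root sheath markers 7 were measured, 6 at least 2-fold lower and 1 higher (Gata3). They summed to 79158 and 75569 in K14-caSmad1 and to 953886 and 919629 in wild type. All of these but Tchh and Gata3 are the inner root sheath keratins given above, and Tchh is also in the list of hair shaft proteins. The sums therefore repeat genes already described. Their summed signal was strong in wild type and lower in K14-caSmad1, along with the hair shaft keratins. The 5 outer root sheath and companion layer markers moved both ways, with Krt6a at 1.15 and Krt75 at -1.50, and summed to 218867 and 209117 in K14-caSmad1 and to 207352 and 196783 in wild type.

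Among markers of other lineages, 5 of 8 melanocyte markers were measured, and 1 of them, Pmel (-1.28), was at least 2-fold lower, with sums of 4043 and 3512 in K14-caSmad1 and of 7662 and 7277 in wild type, and Tyr and Sox10 were not well above background. Mitf was at least 1.74-fold lower. Mitf, Mlana and Slc45a2 had passed the filter through wild type alone, which fixed their direction. By fitted ratios 2 melanocyte genes were lower, 0 without background subtraction or with all spots in its fit, and 5 with the scanner software's processed signals. Of 9 fibroblast and dermal papilla markers 6 were measured, 1 higher (Vim, 1.39) and 3 lower, with sums of 18899 and 18839 in K14-caSmad1 and of 11119 and 11580 in wild type. Col1a1, Col1a2 and Col3a1 were at least 2.39, 2.08 and 3.13-fold lower, and Lum, Pdgfra and Sox2 were not well above background. The 3 collagen genes had passed the filter through wild type alone, which fixed their direction. With both channels required above background, 2 markers of this list were measured, 1 higher and 0 lower. The 3 lower ones were 0 with all spots in the background fit, 2 without background subtraction and 4 with the software's signals. Of 6 endothelial markers 2 were measured and of 6 immune markers 4, with 0 at least 2-fold changed in either list. With the software's signals both endothelial genes were lower, but both had passed the filter through wild type alone, which fixed their direction. With the same signals 1 immune gene was higher, and with median centring 2 immune genes were higher. For the endothelial list the sums were 2275 and 2138 in K14-caSmad1 and 2716 and 2655 in wild type. Of its 6 genes, 6 were not well above background in K14-caSmad1 and 4 were not in wild type, so these sums hold mostly dim signal. For the immune list the sums were 36222 and 31407 in K14-caSmad1 and 29286 and 25365 in wild type. The defining genes Pecam1, Cdh5 and Cd3e of these lists were not well above background in either genotype.

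**Figure D5:**
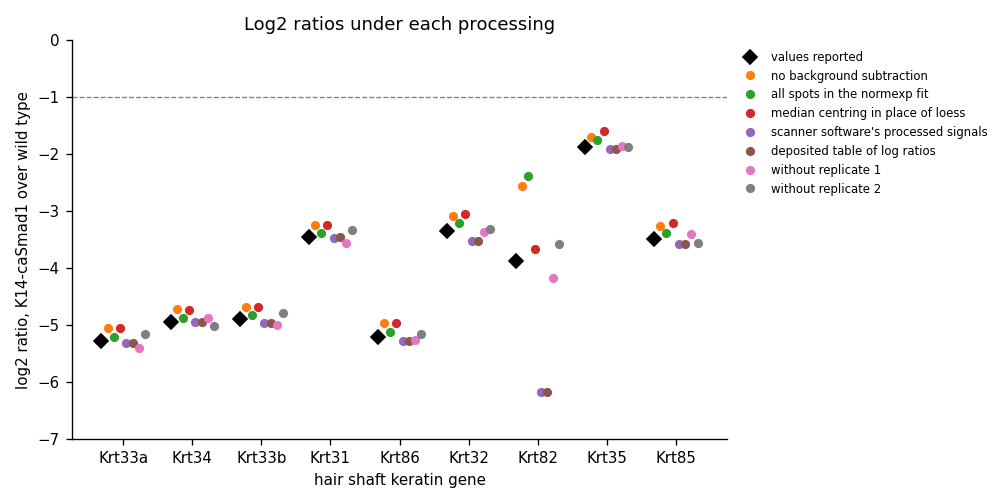
Log2 ratio of K14-caSmad1 over wild type (vertical axis) for each measured hair shaft keratin under the processing reported (black diamonds) and 7 others (coloured circles), with a dashed line at a 2-fold fall. Points of 8 genes lie close together under every processing, and those of Krt82 spread from -6.18 to -2.39.

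The members' fall held in direction under each processing tried. For the 8 members other than Krt82 no other processing moved the log2 ratio by more than 0.29. The highest adjusted p that limma gave any of these 8 was 0.00186. Krt82 spread from -6.18 with the scanner software's processed signals to -2.39 when all spots entered the background fit.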

How the data were processed

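The authors deposited scanner files of Agilent Feature Extraction, with a mean signal and a local background intensity per spot and channel, per the file headers, and a table of log10 ratios of Cy5 over Cy3 that differed from the files' processed ratio by at most 0.00397. From the deposited intensities, limma 3.58.1 in R 4.3.3 took off background (normexp, offset 50, without the spots on a non-uniform background, 36 and 0 on replicates 1 and 2), normalized within arrays (loess, span 0.3, control weight 0) and gave the log2 ratio, K14-caSmad1 over wild type. Levels were Aquantile normalized. The brightest of a gene's tested probes stood for it, and lmFit and eBayes tested the mean ratio over 11748 genes with Benjamini-Hochberg adjustment at 0.05. The fit was tested on simulated data. Names were updated through the RefSeq table of GRCm38.p6: 24844 probes through their accession, 6045 through the symbol and 1802 through a synonym, while 8483, Krt85 among them, retained the file's name.

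The members, gene lists and markers were chosen with earlier results of these data known. Named were every member, other hair keratins, up to 4 genes per list with the largest ratio, all measured regulators and the 6 genes nearest the members' median. The Wnt and BMP genes named are of the regulator list. Each array holds both genotypes, so their number, 2 on 1 slide, limits the precision. Where a probe was not well above background in a genotype, its fold is a bound against the lowest signal well above background or its own signal, whichever was higher. Bounds were computed under the processing reported alone. Alternatives were other background corrections, median centring, the software's signals, the deposited table, other filters, the mean of a gene's probes, an intensity trend and leaving out an array.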

Additional observations from a re-analysis of the deposited data

How the results depend on the processing

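All 98 values of single members under the alternatives kept their direction and, where tested, their side of limma's threshold. The members' median, -3.88, is Krt82's own value and moved with it, to -3.38 with all spots in the normexp fit, to -3.26 without background subtraction, to -4.94 in the deposited table and to -4.95 with the software's processed signals. Leaving out each array gave -4.18 and -3.58, values of 1 array with no test. The median of type II minus type I, 0.29, turned to -0.17 with both channels required above background and to -1.04 in the deposited table and with the software's signals. It was 0.72 with all spots and 0.70 without background subtraction, and 0.03 to 0.49 with an array left out. In the first case Krt82 was absent. In the deposited table and with the software's signals Krt82 was the lowest type II member, so Krt86 gave the type II median. With all spots and without background subtraction Krt82 was the highest, so Krt85 gave it. The count of members at least 2-fold lower, 9, was 8 of 9 with all spots and 8 of 8 with both channels required above background, and 9 with either array left out. Krt82 was the member that fell short with all spots. The count at 10-fold, 6 of the 8 members above background in both genotypes, was 4 to 7 over processing alternatives chosen for it after seeing the data, and 6 to 7 with an array left out.

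Over all genes the counts moved more. At least 2-fold lower were 1153 genes and higher 480. These were 1883 and 1260 with the software's signals, 1882 and 1258 in the deposited table, 764 and 423 without background subtraction and 473 and 303 with all spots. Median centring gave 811 and 1110, with the median of all genes at 0.22 in place of -0.03. limma called 5437 genes lower and 4799 higher, and with all spots 1681 and 1586.

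Each array holds both genotypes, so the test of the log2 ratio already pairs them within the array. No further pairing or grouping was possible with 1 group of 2 arrays. With wild type always in Cy3, dye and genotype cannot be told apart. Negative controls varied more in K14-caSmad1 (SD 52.7 and 34.4) than in wild type (11.1 and 10.8), which limits dim genes such as Krt82.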
